A study of Arabidopsis thaliana with 24 samples.

Results

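The transcripts described here are those that were higher in Arabidopsis rosettes both after 2 h of high light and after 2 h of darkness than after 2 h of control light. They were chosen on the measured values themselves. A transcript was kept when the mean of its 8 high light arrays and the mean of its 8 darkness arrays each exceeded the mean of its 8 control arrays by more than 0.7 on the log2 scale, with both genotypes weighted equally. Of 27826 measured transcripts 84 met both conditions, which is 0.302% of the table. Each condition alone was met by far more transcripts, 1858 for high light and 1914 for darkness, and 205 transcripts were lower by more than 0.7 in both. Because these differences chose the members, the differences between lights are given below as a description without a test, and only the comparison of the genotypes, which the choice did not use, was tested.

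The plants were wild type of the ecotype Col-0 (WT) or *gnat2*, a knockout line with a T-DNA insertion in the gene of the plastid acetyltransferase GNAT2, so that the mutant is represented by 1 allele. All plants were 4.5 weeks old, were raised in short days with 8 h of light, and were moved 2 h after the lights went on into one of 3 conditions for 2 h. These were control light at 120 µmol per square metre and second (C), high light at 1000 (HL) and darkness (D). Each of the 6 combinations of genotype and light held 4 biological replicates, each on its own array, and no group received any other treatment. The authors deposited background-corrected, quantile-normalized log2 values, on which a difference of 1 is a 2-fold change and the median value of an array is 2.35.

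The arrays fitted their labels. The *GNAT2* transcript (AT1G32070) had values of 5.31 to 6.30 in the 12 WT samples and 1.53 to 2.39 in the 12 *gnat2* samples. Of 7 leaf markers 6 had means between 5.51 and 12.6, whereas *CAB2*, one of several nearly identical antenna genes, read 1.39 and stood below the array median. The 18 markers of root, flower, seed and pollen all had means of 1.55 or less. Quantile normalization removes differences in total RNA, and in whole rosettes a change in the share of a cell type and a change of RNA per cell cannot be told apart.

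High light delivers more energy to the photosynthetic membrane than carbon fixation can use, and leaves are known to respond with reactive oxygen species, signals from the plastid to the nucleus and chaperones. Darkness stops carbon fixation, and transcripts repressed by sugars, known as dark-inducible or low-energy genes, accumulate. Transcripts above control light in both treatments have their lowest level at the light in which the plants were sampled as controls.

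Across the 84 members the median difference was 1.05 for HL minus C (range 0.70 to 5.82) and 1.06 for D minus C (range 0.70 to 4.72), beside medians of -0.01 and 0.00 over all transcripts. In 27 members both differences exceeded 1, and in 3 of these, *CGA1*, *BT1* and *SIP2*, both exceeded 2. Their level under C was moderate, with a median of 3.99 beside 2.32 over all transcripts, and 8 members had a C mean below the array median. RefSeq annotation of the assembly TAIR10.1 gave a name to 45 members and none to the other 39. It listed 83 of them as protein coding, among 27241 listed transcripts of which 97.2% are, and AT1G68552 was not in the annotation table used.

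**Figure D1:**
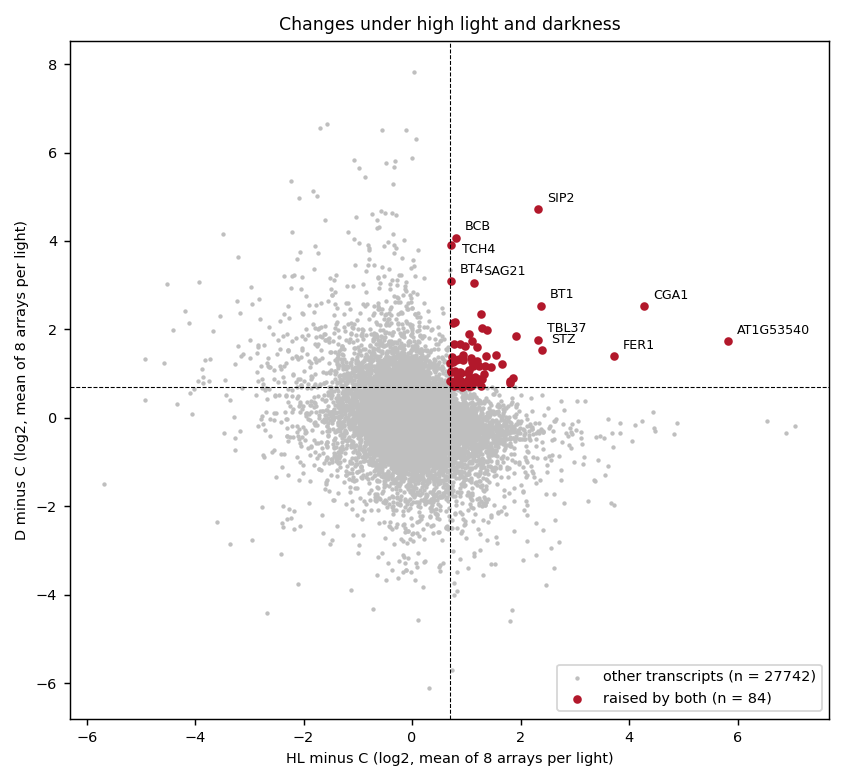
Difference between HL and C (x axis) and between D and C (y axis) of every transcript, in log2 units, as means of 8 arrays per light. The 84 members (red) fill the corner above and to the right of the dashed limits of 0.7, with *CGA1*, *BT1* and *SIP2* beyond 2 on both axes.

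The array values show how far the lights were apart. All 8 HL arrays lay above all 8 C arrays in 59 members, an arrangement found in 7.50% of all transcripts, and all 8 D arrays lay above all 8 C arrays in 52 members, beside 6.76% of all transcripts. Both lights were separated from C in 45 members, and in 18 members neither was, for which the shares of all transcripts were not counted. All of these counts follow in part from the choice of members, so that nothing is read from them.

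*CGA1* (AT4G26150), a GATA transcription factor induced by light and cytokinin that promotes chloroplast development, had the largest smaller rise, which is the lower of the HL and the D difference of a member. Its values ran from 2.04 over a median of 3.03 to 3.72 under C, from 6.97 over 7.20 to 7.44 under HL, and from 5.15 over 5.49 to 5.77 under D. The 3 ranges did not touch, with D between C and HL. The differences were 4.27 for HL and 2.53 for D (standard error 0.13 each). Its closest paralog *GNC*, a GATA factor with overlapping functions, was not a member, with differences of 0.25 and 0.77.

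*BT1* (AT5G63160) encodes a BTB and TAZ domain protein, a family of scaffold proteins that bind calmodulin and respond to sugar and nitrogen supply. Its C values lay between 5.51 and 6.84 (median 6.05), its HL values between 8.19 and 8.72 (median 8.43) and its D values between 8.30 and 8.92 (median 8.55). The HL and D ranges overlapped each other and left C entirely below, with differences of 2.38 and 2.54 (standard error 0.13).

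The family of *BT1* did not move as a block. *BT4*, the other member among 5 *BT* genes, was at 4.67 to 5.25 under C, 5.45 to 5.89 under HL and 7.75 to 8.55 under D, so that it stood just inside the HL limit (0.72) and far above the D limit (3.10). *BT2* had the larger D difference of 7.83 and an HL difference of 0.03, and *BT5* had differences of 4.15 under D and -0.35 under HL. *BT3*, with 0.25 and -0.20, stayed within the limits in both. In the BT family, darkness was thus above its limit in 4 of 5 genes and high light in 2 of 5. The C means of *BT2* (1.78), *BT3* (2.07) and *BT5* (2.32) were below the array median, so that a fall could show little.

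*SIP2* (AT3G57520) encodes an alkaline alpha-galactosidase that splits raffinose. Its lowest, median and highest values were 3.27, 4.28 and 5.13 under C, 6.55, 6.65 and 6.79 under HL, and 8.46, 8.99 and 9.76 under D. The 3 lights formed separate steps, and the differences were 2.32 for HL and 4.72 for D (standard error 0.18). Its relative *DIN10*, also of the dark-inducible class, moved apart between the lights, with -1.57 under HL and 6.65 under D. The raffinose synthase gene *RS5* showed the opposite order, with 0.75 under HL and -1.78 under D. *SIP1* and the stachyose synthase homolog *STS* had absolute differences of 0.19 or less. Their C means of 1.42 and 1.31 were near the floor of the arrays, so that little can be read from these differences.

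AT2G28200 and *TBL37* had similar elevations in both lights. AT2G28200, which carries no name in the annotation used, lay between 2.17 and 3.04 under C, 4.14 and 4.87 under HL, and 3.62 and 4.70 under D, with differences of 1.92 and 1.85. *TBL37* (AT2G34070) belongs to a family of proteins that acetylate cell wall polysaccharides, and its ranges were 3.21 to 4.89 under C, 6.24 to 6.90 under HL and 5.71 to 6.21 under D. All HL arrays of *TBL37* exceeded all D arrays, and the differences were 2.32 and 1.77.

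*DJC66*, a protein with the J domain of HSP70 co-chaperones, was at 3.72 to 5.02 under C, 5.58 to 6.61 under HL and 5.46 to 6.45 under D. AT5G66052 was at 3.73 to 4.38, 5.27 to 5.53 and 5.86 to 6.22, and AT1G68440 at 3.79 to 4.23, 5.09 to 5.54 and 5.68 to 6.60. These 2 unnamed transcripts varied little within each light, and D was above HL on every array, with D differences of 1.98 and 2.03 against HL differences of 1.38 and 1.29. *GME*, which encodes the GDP-mannose epimerase of ascorbate synthesis and was picked after its values were seen, had one of the smallest spreads, with 6.14 to 6.79 under C, 7.49 to 7.79 under HL and 7.63 to 7.89 under D.

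**Figure D2:**
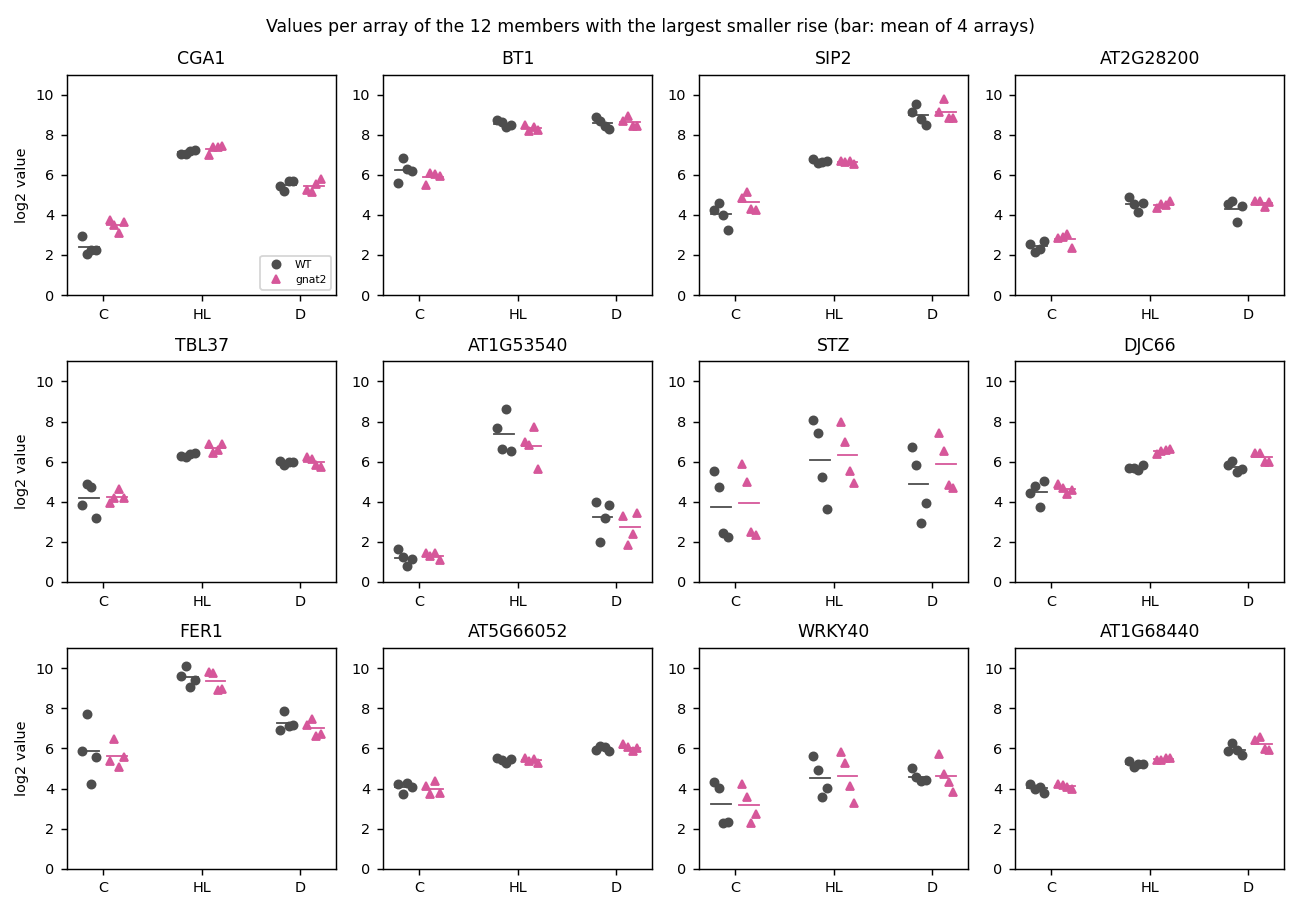
Log2 value on each array (y axis) under C, HL and D (x axis) of the 12 members with the largest smaller rise, WT as grey circles and *gnat2* as pink triangles, with bars at the mean of 4 arrays. C lay below both other lights on every array in 9 of the panels, whereas *STZ*, *WRKY40* and, under D, *FER1* overlapped with C.

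High light exceeded darkness in 39 members and darkness exceeded high light in 45. The difference between the lights was within 0.7 in 65 members and within 0.3 in 40. It exceeded 0.7 in favour of HL in 7 members and in favour of D in 12. All HL arrays lay above all D arrays in 6 members, beside 12.7% of all transcripts, and all D arrays above all HL arrays in 14 members, beside 11.9%.

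On the high light side stood AT1G53540, *FER1*, *CGA1* and AT3G19030. AT1G53540 carries no name in the annotation used. It was near the floor of the arrays under C, with 0.79 to 1.65, and reached 5.65 to 8.62 under HL and 1.86 to 3.98 under D. Its HL difference of 5.82 (standard error 0.32) was the largest of all members, and its D difference was 1.73.

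*FER1* (AT5G01600) encodes ferritin, the protein that stores iron in the plastid. Its values were 4.24, 5.57 and 7.72 (lowest, median and highest) under C, 8.93, 9.53 and 10.11 under HL, and 6.64, 7.13 and 7.87 under D. HL was clear of both other lights, with a difference of 3.72, while D overlapped C through WT C replicate 2, the array at 7.72, and differed from C by 1.39 (standard error 0.32). The other plastid ferritins *FER3* (2.75 and 0.38) and *FER4* (1.14 and 0.25) exceeded the limit under HL only, and the seed ferritin *FER2*, at a C mean of 1.42, had 0.00 and -0.04.

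Several further members handle iron or manganese, and they were picked after their values were seen. *NRAMP1*, a manganese and iron importer, was at 2.92 to 3.76 under C, 4.86 to 5.38 under HL and 3.51 to 4.42 under D (differences 1.80 and 0.82). *YSL1*, a transporter of iron bound to nicotianamine, had differences of 1.28 and 0.72, and *VTL2*, of the vacuolar iron transporter-like family, 1.09 and 0.84. Under HL *NRAMP1*, *YSL1* and *VTL2* were clear of C, whereas under D they overlapped it. All C values of *VTL2*, at most 2.23, were below the array median. *MET18*, which acts in the assembly of iron-sulphur proteins, had 0.91 and 0.83 and did not overlap C in either light.

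The relatives of these transporters did not share the pattern. Of 6 *NRAMP* genes and of 8 *YSL* genes 1 each was a member. *NRAMP3* was above the limit under HL only (0.84 and -0.30) and *YSL3* under D only (-0.64 and 1.82). *NRAMP4*, which releases iron from the vacuole, had -0.51 and -1.44.

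Of 9 genes known to be induced when iron is short, listed after the values of *FER1* were known, 4 were lower than C by more than 0.7 in both lights, and none was a member. These were *OPT3* (-1.45 under HL and -1.86 under D), *BHLH100* (-1.88 and -1.43), *PYE* (-1.05 and -1.09) and *BTS* (-1.56 and -0.91). *OPT3*, a phloem transporter, lay at 6.88 to 8.18 under C, at most at 6.49 under HL and at most at 6.07 under D, so that C was above both. *BTS* was clear of C under HL only, and *BHLH100* and *PYE* overlapped C in both lights. *bHLH38*, *bHLH39* and *BHLH101* had C means of 1.63, 1.46 and 1.87, near the floor of the arrays, so that they could fall little. *FRO3*, a ferric reductase of mitochondria, went apart, with -2.77 under HL and 0.88 under D, and the nicotianamine synthase *NAS4* had -0.33 and -2.09.

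On the dark side the 4 largest leads belonged to *BCB*, *TCH4*, *SIP2* and *BT4*. *BCB* (AT5G20230), a blue copper-binding protein of the cell surface, was at 6.05 to 6.80 under C, 6.60 to 8.13 under HL and 10.21 to 10.68 under D. The HL range overlapped that of C, and the differences were 0.80 and 4.07. *TCH4* (AT5G57560) is a touch-induced xyloglucan endotransglucosylase, an enzyme that remodels the cell wall. It was at 0.90 to 3.78 under C, 2.36 to 4.33 under HL and 5.62 to 7.48 under D, with differences of 0.72 and 3.90 (standard error 0.38), so that its D range was clear of C and its HL range was not.

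Further members led by darkness were picked after their values were seen. *SAG21*, a late embryogenesis abundant protein of mitochondria, was at 3.78 to 4.80 under C, 4.84 to 5.69 under HL and 7.03 to 7.63 under D. *RAP2.10*, an AP2/ERF factor, had differences of 0.76 and 2.15, *AGK2*, a guanylate kinase, 0.77 and 1.66, and *PYM*, which binds the exon junction complex, 0.88 and 1.67. In each of these 4, every D array was above every HL array and every HL array above every C array. *PDS1*, whose dioxygenase leads from tyrosine to homogentisate, the precursor of tocopherol and plastoquinone, had 0.98 and 1.62.

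**Figure D3:**
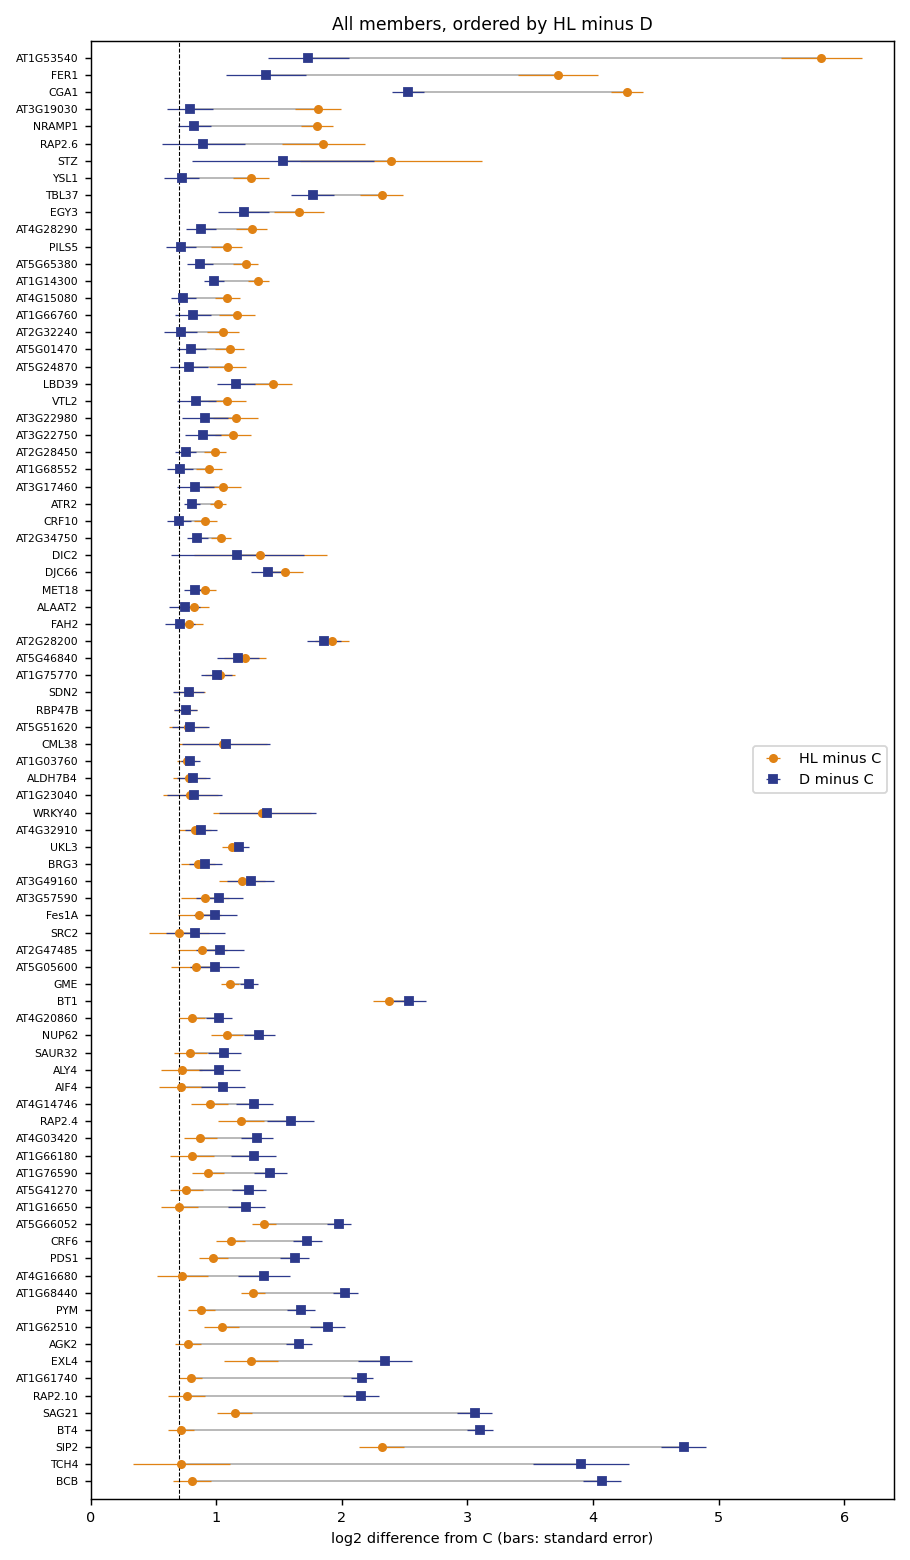
HL minus C (orange circles) and D minus C (blue squares) of all 84 members in log2 units on the x axis, with standard errors from limma as bars and members ordered by the gap between both lights on the y axis. The limit of 0.7 is dashed, and in 65 of the members both points lay within 0.7 of each other.

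By function, 15 of the members belonged to at least 1 of 28 lists of genes matched by symbol, and 9 of the lists held a member. The 39 members without a name could not be matched to a list, so that the counts cover named genes only. Among 30 low-energy and dark-inducible genes 19 exceeded the limit under D and 5 under HL. The median of this list was 2.19 for D minus C and -0.14 for HL minus C, beside 0.00 and -0.01 over all transcripts. *BT1*, *BT4* and *EXL4* were above both limits, which is 10% of the list. *EXL4*, related to EXORDIUM, a secreted protein of growth control, was at 3.24 to 4.95 under C, 5.21 to 5.83 under HL and 5.96 to 7.29 under D (differences 1.28 and 2.35). Of 7 *EXORDIUM*-like genes it was the one member. *EXL2* (-0.27 and 2.34) and *EXL3* (-0.80 and 2.24) had D differences like its own and HL differences below 0.

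The list of 73 ERF, DREB and CBF factors, plant transcription factors with the AP2 domain, held 5 members, *RAP2.4*, *RAP2.6*, *RAP2.10*, *CRF6* and *CRF10*, or 6.85% of the list. Under HL 18 of the list were above the limit and under D 17, and the list medians were 0.12 and 0.18. *RAP2.4* (AT1G22190) was at 4.34 to 5.43 under C, 5.47 to 6.64 under HL and 5.99 to 6.95 under D. *CRF6*, a cytokinin response factor linked to leaf ageing, was at 2.36 to 3.18, 3.68 to 4.22 and 4.24 to 4.79, with every D array above every HL array. *RAP2.6* had differences of 1.85 and 0.89 (standard error 0.33), which depended on the replicate numbers of the labels. Within numbers 1 and 2 they were 0.92 and 1.34, and within numbers 3 and 4 they were 2.78 and 0.45. Under HL the arrays numbered 3 and 4 (4.90 to 5.10) were above those numbered 1 and 2 (2.72 to 3.46).

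Most of the 12 *CRF* genes left C in one light or in neither. *CRF2* (2.18 and 0.45) and *CRF3* (2.17 and -0.14) were above the limit under HL, where 5 of the 12 were, and 2 were above it under D. *CRF10* (AT1G68550) stood at the edge of the set, with 0.91 and 0.70. The annotated identifier AT1G68552, numbered directly beside it, had nearly the same values on every array (0.94 and 0.71), and whether both report one signal cannot be told apart here. Other edges of the set were *SRC2* (0.70) and AT1G16650 (0.71) just inside the HL limit, with AT2G01100 (0.69) and AT5G52882 (0.70) just outside it. On the D side, *JAZ10* (0.69) and *PPa2* (0.70) were just outside the limit, where *CRF10* and AT1G68552 were just inside.

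**Figure D4:**
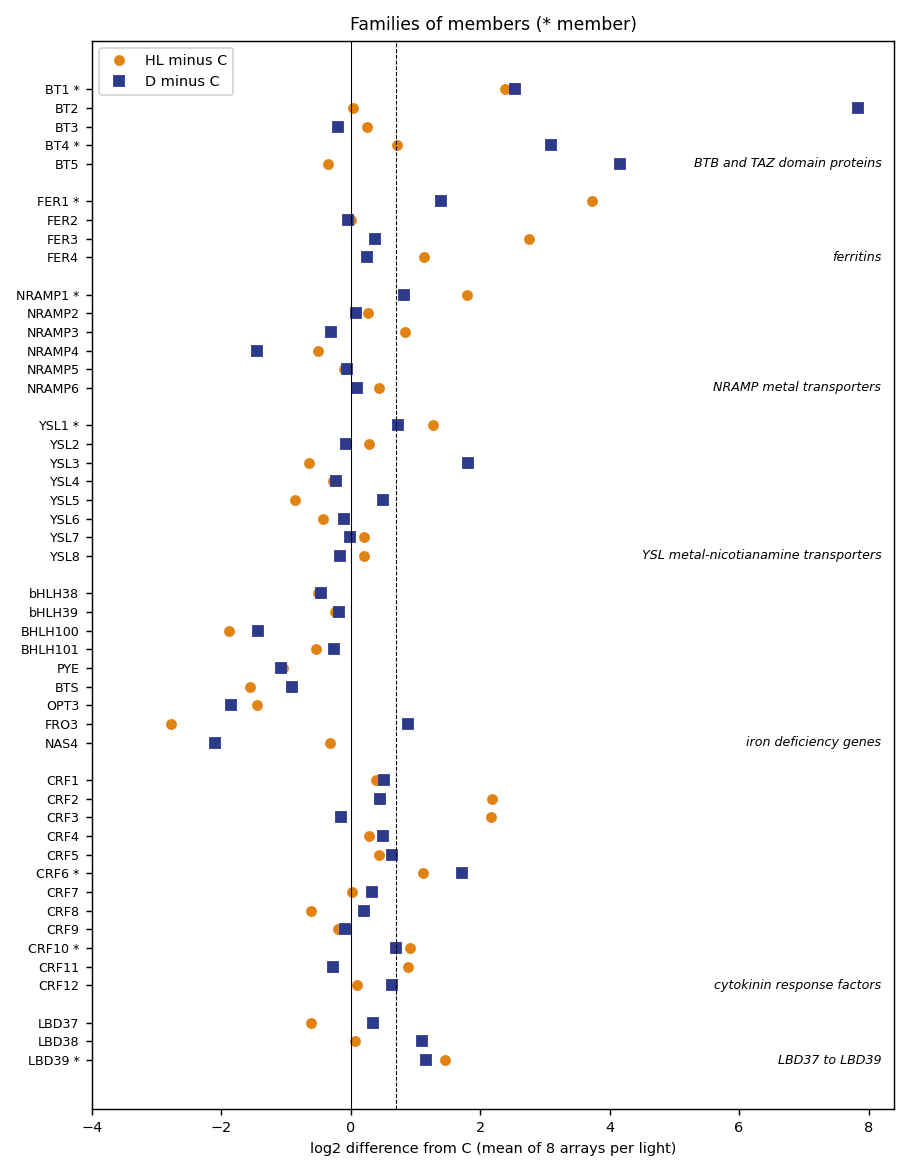
HL minus C (orange circles) and D minus C (blue squares), in log2 units on the x axis, of gene families that hold a member (asterisk) and of iron deficiency genes, on the y axis. Families split, as with *BT2* (0.03 and 7.83) beside *BT1* (2.38 and 2.54), and 4 iron deficiency genes lay below C by more than 0.7 in both lights.

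The other lists matched by symbol held at most 2 members. *WRKY40*, a repressor in abscisic acid and defence signalling, was the 1 gene of 72 *WRKY* factors above the limit under HL, while 15 were above it under D. *STZ*, a C2H2 zinc finger repressor of stress responses, was the 1 member among 31 C2H2 factors matched by symbol. *CML38*, a calmodulin-like calcium sensor, and *TCH4* were the 2 members of 120 calcium and touch genes. *Fes1A*, a partner of HSP70, was the 1 member among 70 heat shock proteins and factors matched by symbol, of which 29 were above the limit under HL and 2 under D. *PDS1* was the 1 member of 24 amino acid catabolism genes, of which 3 were above the limit under HL and 16 under D.

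Lists with no member included 43 autophagy genes, of which 3 exceeded the HL limit and 11 the D limit, 35 clock genes (5 and 7) and 56 genes of abscisic acid signalling and turnover (9 and 5). *SAUR32* was the 1 member of 152 auxin response genes, and *TCH4* the 1 member of 66 xyloglucan and expansin genes. *LBD39*, which with *LBD37* and *LBD38* represses anthocyanin and nitrate-responsive genes, was at 4.55 to 6.39 under C, 6.80 to 7.60 under HL and 6.45 to 7.42 under D (differences 1.45 and 1.15). *LBD37*, with -0.62 and 0.34, and *LBD38*, with 0.06 and 1.11, were not members.

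A group of members concerned with RNA was picked after its values were seen. *NUP62*, a protein of the nuclear pore, had 1.09 and 1.34 (C 3.05 to 3.86, HL 4.22 to 5.03, D 4.32 to 5.21). *ALY4*, an adaptor of mRNA export, had 0.72 and 1.02, *RBP47B*, an RNA-binding protein of stress granules, 0.76 and 0.75, and *SDN2*, a nuclease that degrades small RNAs, 0.78 and 0.78. Nucleotide and amino acid metabolism was present with *UKL3*, a uridine kinase-like protein (1.12 and 1.18), and *ALAAT2*, an alanine aminotransferase (0.82 and 0.75). *ATR2*, the reductase that supplies cytochrome P450 enzymes with electrons, had the smallest residual spread of all members, 0.09, and differences of 1.01 and 0.80.

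Of the members placed in the annotation, 2 pairs were direct neighbours, *NRAMP1* with *WRKY40* and AT4G20860 with *FAH2*. *FAH2* is a fatty acid hydroxylase of sphingolipid synthesis. *CRF10* and AT1G68552, which are adjacent by number, could not be counted, because AT1G68552 was not in the annotation table used. *NRAMP1* favoured HL by 0.98, whereas *WRKY40* had nearly equal differences of 1.36 and 1.41. AT4G20860 had differences of 0.81 and 1.02, and *FAH2* of 0.78 and 0.71.

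In *STZ*, *WRKY40* and *DIC2* the arrays of one group were far apart, and the spread followed the replicate numbers of the labels. *STZ* ranged from 2.23 to 5.90 under C, 3.62 to 8.09 under HL and 2.92 to 7.44 under D, with a residual standard deviation of 1.67, the highest of the members, beside a median of 0.29 over members and 0.22 over all transcripts. In each of the 6 groups the arrays numbered 1 and 2 were above those numbered 3 and 4. Under C they were at 4.74 to 5.90 and 2.23 to 2.50, under HL at 6.97 to 8.09 and 3.62 to 5.51, and under D at 5.85 to 7.44 and 2.92 to 4.84.

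The same order in all 6 groups was found in 7 members, *STZ*, *WRKY40*, *DIC2*, *TCH4*, *SRC2*, AT1G66180 and AT3G19030, beside 0.226% of all transcripts, and *CML38* showed it in 5 groups. The opposite order in all 6 groups was found in 0 members, beside 0.0395% of all transcripts. This pattern was noticed in the values, and the labels do not say what the numbers stand for. With the replicate number as a block in the fit, *STZ* differed between *gnat2* and WT averaged over the lights (adjusted p = 0.0367 from limma), and without the block it did not (0.49, adjusted p = 0.625).

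In *STZ*, *WRKY40* and *DIC2* both differences exceeded 0.7 within each pair of numbers. For *STZ*, HL minus C was 2.32 within numbers 1 and 2 and 2.45 within numbers 3 and 4, and D minus C was 1.35 and 1.71. *WRKY40* had 1.37 and 1.35 for HL, and its D differences were 0.98 and 1.84. *DIC2*, a mitochondrial dicarboxylate carrier, had HL differences of 1.62 and 1.09, and D differences of 0.97 and 1.37. In contrast, *CML38* had HL differences of 1.91 and 0.19 with D differences of 1.51 and 0.64, and *TCH4* had HL differences of 0.40 and 1.05, so that each met the rule within 1 of the pairs. *CML38* was near the floor of the arrays under C, with 0.89 to 1.43. Within numbers 3 and 4 it reached at most 1.38 under HL and 1.78 under D. Of the 84 members 58 met the rule within numbers 1 and 2 alone, where 84 transcripts did, and 77 within numbers 3 and 4 alone, where 116 did. The members were chosen on means over these same arrays. The differences within a pair and these counts thus follow in part from the choice and are given as a description.

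**Figure D5:**
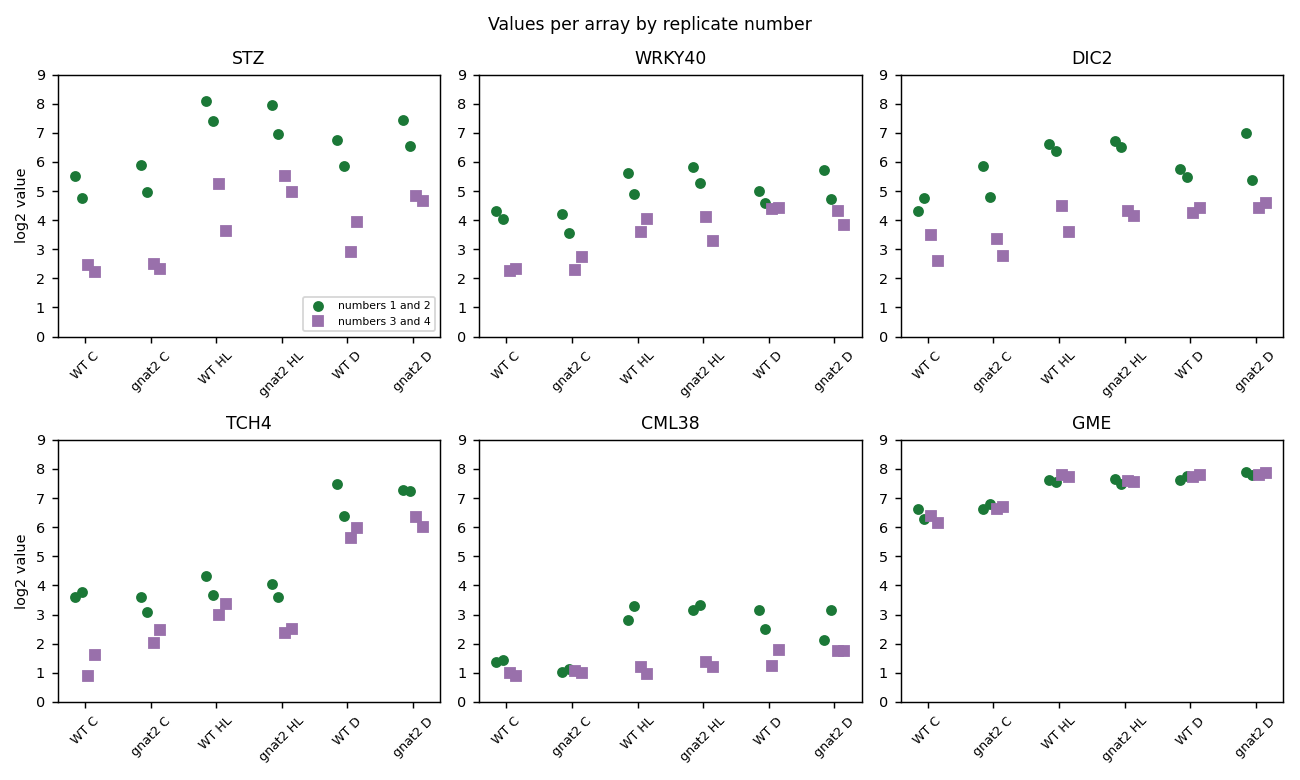
Log2 value on each array (y axis) by genotype and light (x axis) for *STZ*, *WRKY40*, *DIC2*, *TCH4*, *CML38* and, for contrast, *GME*, with replicate numbers 1 and 2 as green circles and 3 and 4 as purple squares. In *STZ* the circles lay above the squares in all 6 groups, from 4.74 to 5.90 against 2.23 to 2.50 under C, whereas in *GME* they were mixed.

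The comparison of *gnat2* with WT asked whether these transcripts depended on GNAT2. Taken in each genotype alone, the rule was met by 76 members in WT and by 62 in *gnat2*, and by 55 in both. Over all transcripts it was met by 116 on the WT arrays alone and by 84 on the *gnat2* arrays alone. These counts do not compare the genotypes. The responses of the genotypes were compared with limma over all transcripts, with p-values adjusted by the Benjamini-Hochberg method, two-sided. For the HL response 0 members differed at an adjusted p under 0.05, beside 0.0108% of all transcripts, and 4 did at an unadjusted p under 0.05, beside 6.18%. For the D response 0 members differed, beside 0.0288%, and 5 did at an unadjusted p under 0.05, beside 7.53%. The share of members was thus not above that of all transcripts in either response.

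Averaged over the 3 lights, 13 members passed an adjusted p of 0.05 for *gnat2* against WT, or 15.5% of them, near the 14.7% of all transcripts that did. Of these, 8 were higher and 5 lower in *gnat2*, and no difference exceeded 1. The direction was the same in all 3 lights in 11 of the 13, which calling on the mean of the 3 differences favours. Over all 84 members the differences ran from -0.50 to 0.64, with a median of 0.03 beside -0.01 over all transcripts.

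The smallest adjusted p belonged to AT1G61740, which carries no name in the annotation used. It was at 6.91 to 7.35 in WT and 6.62 to 6.89 in *gnat2* under C, at 7.88 to 8.23 and 7.39 to 7.56 under HL, and at 9.01 to 9.61 and 8.69 to 8.96 under D. The genotypes did not overlap in any light, and the averaged difference was -0.49 (standard error 0.07, adjusted p = 1.22e-04 from limma). It was the one member of the 13 with this separation in all 3 lights. The share of all transcripts with such a separation was not counted, and calling on the averaged difference favours it, so that nothing is read from this.

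*SAUR32*, a small auxin-induced protein, was also lower in *gnat2*, by a log2 difference of -0.50 (standard error 0.11, adjusted p = 0.00323 from limma). The genotypes separated under D, with 5.05 to 5.70 in WT and 4.46 to 4.97 in *gnat2*, and overlapped under C and HL. *CRF10* (-0.35), AT1G68552 (-0.33) and AT1G62510 (-0.48) were the other members that were lower, with adjusted p = 0.00348, 0.0111 and 0.00595 from limma.

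Higher in *gnat2* were *LBD39* (0.56, adjusted p = 0.00380 from limma), *DJC66* (0.48, adjusted p = 0.00550) and the unnamed AT3G22750, AT3G17460, AT3G57590, AT4G20860 and AT1G14300, with differences from 0.26 to 0.64. For *LBD39* the genotypes separated under D, with 6.45 to 6.92 in WT and 7.22 to 7.42 in *gnat2*. For *DJC66* they separated under HL, with 5.58 to 5.85 in WT and 6.37 to 6.61 in *gnat2*. The eighth was *CGA1*, at 0.41 (adjusted p = 0.0101).

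The difference of *CGA1* was largest under control light. Under C its values were 2.97, 2.04, 2.25 and 2.27 in WT and 3.72, 3.50, 3.09 and 3.65 in *gnat2*, so that every *gnat2* array was above every WT array, by a mean of 1.11 (standard error 0.18, adjusted p = 0.00247 from limma). Under HL the means were 7.11 in WT and 7.30 in *gnat2*, and under D they were 5.50 and 5.43. The rise under HL was 4.73 in WT and 3.81 in *gnat2*, and the rise under D 3.12 and 1.94. These responses differed by -0.92 (adjusted p = 0.334 from limma) and -1.18 (adjusted p = 0.147), which did not pass the threshold. Of 24 fits that each left out 1 array, 1 called the difference of the D responses. That fit left out WT C replicate 1, the WT array with the highest control value (adjusted p = 0.0311 from limma). In the other fits of this series the adjusted p reached 0.295, and 0 of 6 other settings called the difference.

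Under C alone, 3 members differed, or 3.57% beside 1.30% of all transcripts, all of them higher in *gnat2*. Besides *CGA1* these were AT1G14300 (0.50, adjusted p = 0.0308 from limma; WT 3.07 to 3.56, *gnat2* 3.60 to 4.00) and AT4G20860 (0.59, adjusted p = 0.0427; WT 0.78 to 1.35, *gnat2* 1.46 to 1.90). The values of AT4G20860 under C lay below the array median, so that its size is uncertain. When 1 array at a time was left out, *CGA1* was called in 24 of 24 fits, AT1G14300 in 19 and AT4G20860 in 13. With only the 8 C arrays in the fit, *CGA1* had an adjusted p = 0.0527.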

How the data were processed

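In all, 24 Affymetrix Arabidopsis gene arrays of 2 genotypes under 3 lights were used, with 4 biological replicates per group. The deposited log2 values were made by the authors, who assigned probes to TAIR genes with a custom chip definition file (version 22), corrected the background by RMA and normalized by quantiles; the table holds 0 missing values. The number of arrays limits the precision, and raw intensities, the proteome, the acetylome and metabolites were not analysed here.

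The members, gene lists and families were chosen with earlier results of these data known. Members were found in Python 3.11.15 with pandas 2.3.3. The genotypes were compared in R 4.3.3 with limma 3.58.1, with 1 mean per genotype and light over all 27826 transcripts (18 residual and 6.05 prior degrees of freedom), two-sided, adjusted by the Benjamini-Hochberg method over all transcripts and called at an adjusted p under 0.05. Standard errors are those of this fit. On simulated data of 27826 transcripts, 192 to 200 of 200 transcripts changed by 1.5 or 3 were recovered in the 4 genotype comparisons, with 10 to 13 calls among the unchanged. The members had differences smaller than 1.5 in all of these comparisons. Changes of that size were not simulated, so that their recovery is not known.

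Named members were the 12 with the largest smaller rise, the 4 with the largest lead of either light, up to 6 called per genotype comparison by adjusted p, 2 of each list with 3 or more members, and 2 on each side of each limit. Names came from RefSeq (TAIR10.1). Lists matched by words in gene synonyms rather than by symbol took in genes of other functions and are not described, and the members they named were also named by other parts of the rule. No promoter sequences were analysed here. Samples with the same replicate number deviated together only in part, with correlations from -0.01 to 0.24 over 60 pairs of arrays, and the number was used as a block only as an alternative. The other alternatives were limits of 0.5 and 1, medians, 1 genotype alone, cyclic loess, leaving out low transcripts, an intensity trend, array weights, fits of only the arrays compared, leaving out each array, and, chosen after seeing the data, 2 replicate numbers at a time.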

Additional observations from a re-analysis of the deposited data

Results flagged for a closer look

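In 7 of 180 groups of 4 arrays, over the 30 members chosen for naming, 1 array lay far from the other 3, where chance gives about 1 in 20 groups, or 9. *CGA1* read 6.97 in *gnat2* HL replicate 1, with the others at 7.40 to 7.44. AT2G28200 read 4.37 in *gnat2* D replicate 3, with the others at 4.66 to 4.70. *BCB* read 10.65 in WT D replicate 1 (others 10.38 to 10.42) and 6.60 in *gnat2* HL replicate 2 (others 7.19 to 7.24). *SAUR32* read 5.05 in WT D replicate 3 (others 5.62 to 5.70) and 5.13 in *gnat2* HL replicate 4 (others 4.46 to 4.55). *EXL4* read 3.24 in WT C replicate 4, with the others at 4.75 to 4.95.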

How the results depend on the processing

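The number of members followed the limits most, with 208 at limits of 0.5 and 27 at limits of 1. It was 84 to 116 with the median in place of the mean, cyclic loess, low transcripts left out, 1 genotype alone or 2 replicate numbers at a time, and 79 to 92 when 1 array was left out, lowest without WT C replicate 4. In that series of fits at least 69 of the 84 members remained. Averaged over the lights, 13 to 15 members differed between the genotypes when 1 array was left out, and the 13 were called in every such fit. Under C, 1 to 5 members differed when 1 array was left out, 1 with an intensity trend of the prior spread (*CGA1*) and 1 with only the arrays compared (AT3G57590); a cause was not tested. The difference between the HL responses gave 0 members in every fit, and that between the D responses 0 to 1 when 1 array was left out. With the replicate number as a block, 15 members differed averaged over lights, with *STZ* and AT5G41270 added to the 13, 3 under C, and 0 in the HL and D responses. Correlations between arrays of one number exceeded 0.1 in 14 of 60 pairs. The HL and D differences of the named members kept their direction under all 360 combinations of member, difference and alternative. Of these, 18 moved by more than the spread between replicates. The members were chosen for rises in both lights, and the alternatives reused the same arrays or a part of them. The kept direction thus follows largely from the choice and is given as a description.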
